A study of Mus musculus with 12 samples.

Results

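Collagens are trimers of alpha chains, and each chain has a gene of its own. The 44 collagen chain genes described here are all genes on the array whose annotated single symbol has the form Col, a number, a and a number. They were represented by 46 probe sets, and of the pairs of probe sets for Col6a5 and Col6a6 the brighter one by its mean over the 12 arrays was used. These 44 genes belong to 19937 genes with a single symbol, of which 14217 passed a filter on dim values (a value above the 40th percentile of its array on 3 or more of the 12). All 44 chain genes passed it. By class they were 11 fibrillar chains, 9 chains of fibril-associated collagens (FACIT), 6 type VI chains, 3 network chains of types VIII and X, 6 type IV chains of basement membranes, 2 multiplexins, 4 transmembrane chains and 3 others.

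RNA came from cells of the long bones of C57BL/6 mice, all female, without tumor or about 2 weeks after intracardiac injection of 500000 EO771 cells. EO771 is a mammary cancer line from C57BL/6 mice. The osteoblast gate (OB) was negative for GFP, TR119, CD45, SCA1 and CD31 and positive for CD51, and the endothelial gate (EC) was negative for GFP, TR119 and CD45 and positive for SCA1 and CD31. The 4 groups, tumor-free osteoblasts, osteoblasts of tumor-bearing mice, tumor-free endothelial cells and endothelial cells of tumor-bearing mice, had 3 arrays each, each made from RNA of 5000 cells. The labels call the arrays biological replicates and do not say whether arrays of the different groups share mice, nor do they give the animals' age. The tumor was an injected cell line rather than a spontaneous one.

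Type I collagen, made from the Col1a1 and Col1a2 chains, is the main organic component of bone, and osteoblasts secrete it as the template for mineral. Types III and V accompany type I in interstitial fibrils, types II, IX and XI build the fibrils of cartilage, and type X is the network collagen of hypertrophic cartilage. Type IV forms the sheet of basement membranes, including those beneath endothelium, and type VI forms beaded filaments around cells.

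The array values are log2 intensities as deposited, with array medians between 5.95 and 6.04. Values within about a unit of those medians lie near the dim end, where log2 differences understate differences in RNA. Levels are compared between groups for 1 gene at a time and not between genes, since each probe set has its own brightness. Array medians and percentiles are used only to mark how bright or dim a probe set's signal was on its array. The gates held RNA of their named cell types. With limma, 7 of 7 tested osteoblast markers were higher and 10 of 10 endothelial markers lower in OB than in EC of tumor-free mice. In tumor-bearing mice these were 6 of 7 and 10 of 10. The endothelial list includes Pecam1, the gene of the sort antigen CD31, which is no separate support. The OB arrays also held chondrocyte transcripts, since 8 of 12 tested chondrocyte markers were higher in OB of tumor-free mice and 9 of 12 in OB of tumor-bearing mice. Marrow stroma and adipocyte markers were higher for 7 of 8 genes and lower for Pparg in tumor-free OB, and in tumor-bearing mice 0 of 8 were higher and Pparg alone was lower (-3.18 and -3.39). Fibroblast and tendon markers were higher for 3 and 5 of 10 genes. For all these marker counts, the shares over all genes in tumor-free OB were 5.38% higher and 7% lower. In tumor-bearing mice they were 4.89% and 5.68%. Of 6 pan-haematopoietic and 8 neutrophil markers 0 passed by limma between the gates in either condition. At an unadjusted p under 0.05 were 1 and 2 of them in tumor-free mice, and 2 and 0 in tumor-bearing mice. Among the 14217 tested genes, 3338 lay below this limit in tumor-free mice and 3236 in tumor-bearing mice. Tumor-free OB replicate 3 stood apart in the neutrophil markers, with a median of 10.58 against 6.92 and 7.73 on the other tumor-free OB arrays and a log2 of the summed level of 13.71 against 11.85 and 11.80.

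The question first put to the 44 chain genes was which of them each sorted cell type carried. In tumor-free mice, 16 of the 44 were higher in OB and 2 were lower by limma, with Benjamini-Hochberg adjusted p under 0.05 over all 14217 genes. Over all genes tested, 12.4% were called, 5.38% higher and 7% lower. In tumor-bearing mice 16 were again higher and 2 lower, where 10.6% of all genes were called, 4.89% higher and 5.68% lower. The OB and EC arrays did not overlap for 21 chain genes that were measured higher and 3 measured lower in tumor-free OB (13.6% and 15.8% of all genes), and for 20 and 2 in tumor-bearing mice (12.1% and 16% of all genes). The median difference, OB minus EC, was 0.26 over the chain genes against -0.01 over all genes in tumor-free mice, and 0.22 against -0.03 in tumor-bearing mice. Of the 18 called in each condition, 16 were called in both with the same direction, which is 88.9% of either list. Col11a2 and Col25a1 were called in tumor-free mice and not in tumor-bearing mice, and Col9a1 and Col22a1 the other way round. A further 24 chain genes were called in neither. With a fold change of at least 2 required as well, 12 and 14 were called. This ended the calls of Col4a1, Col5a1 and Col24a1 in both conditions, of Col4a2, Col11a2 and Col25a1 in tumor-free mice and of Col22a1 in tumor-bearing mice. Without tumor-free OB replicate 3, the OB array high in neutrophil markers, 16 and 18 were called. In sorted bulk RNA, a larger share of cells that express a chain and more RNA per cell cannot be told apart.

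**Figure D1:**
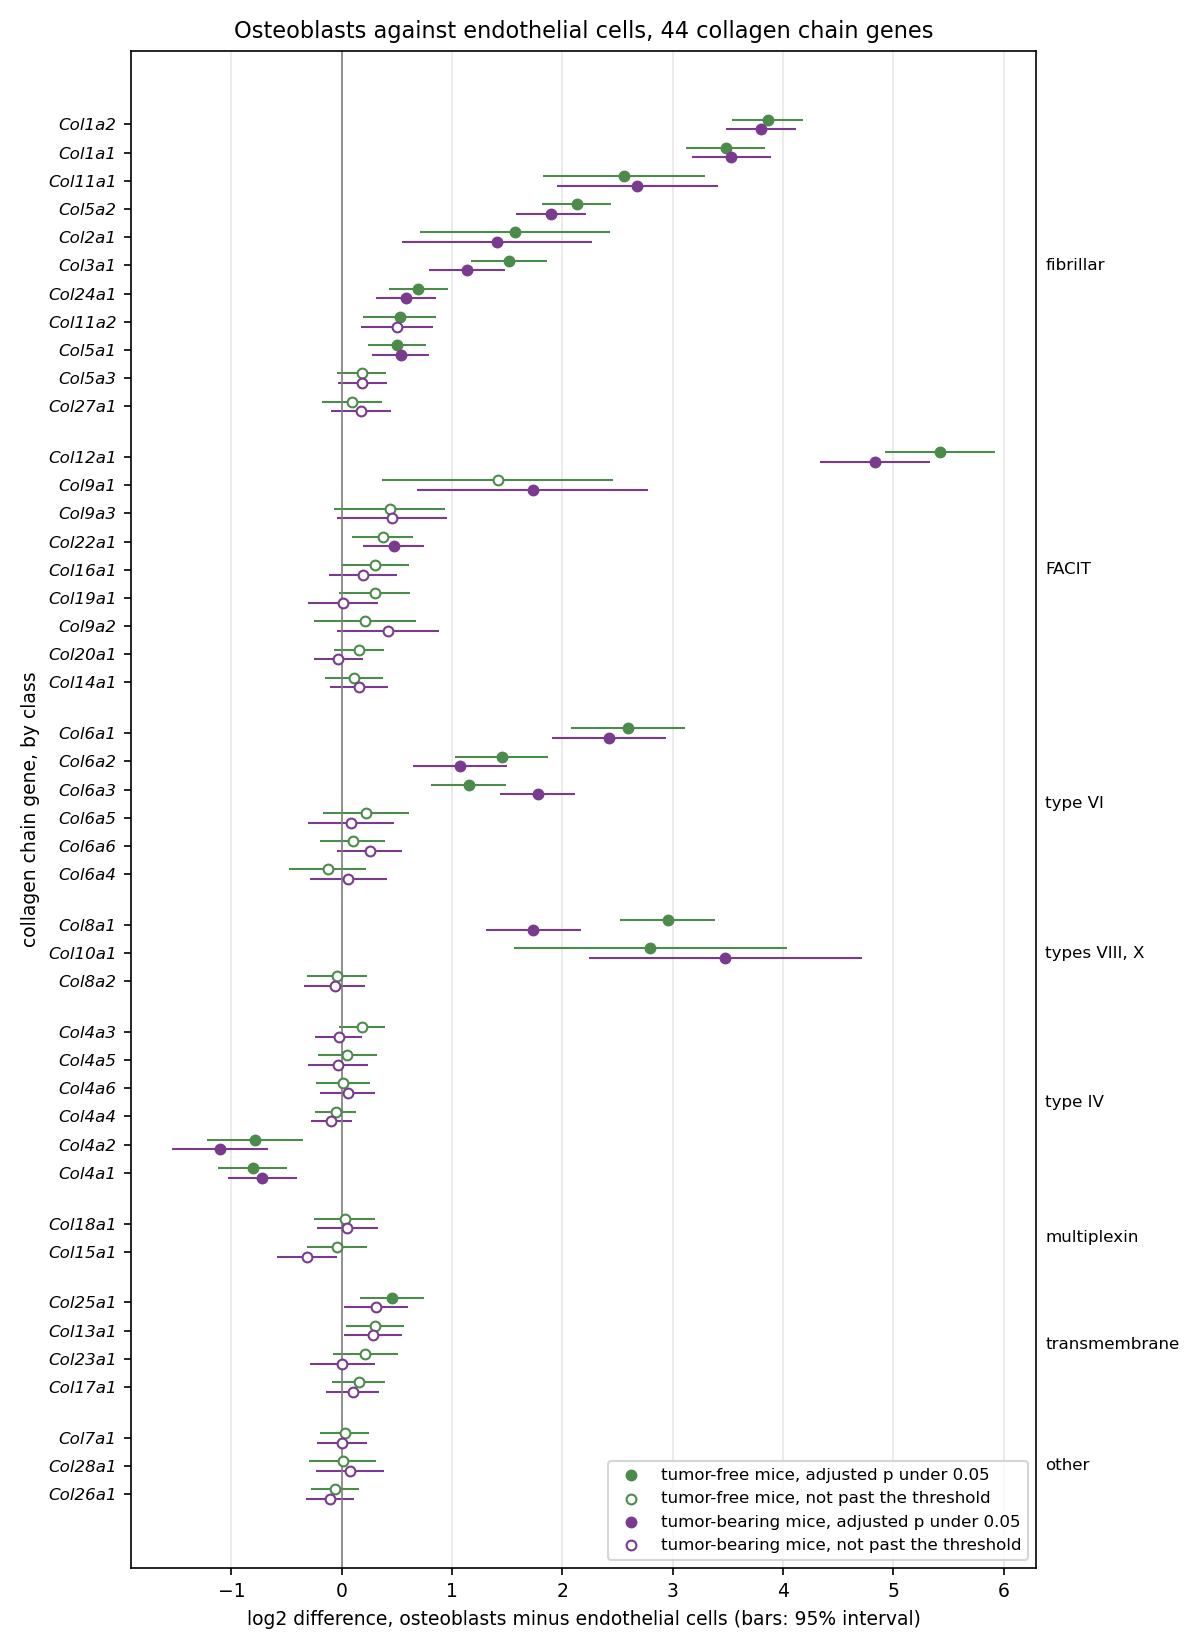
Differences between osteoblasts and endothelial cells for the 44 collagen chain genes, grouped by class (vertical axis), as log2 values of osteoblasts minus endothelial cells (horizontal axis), for tumor-free and tumor-bearing mice. Points are the limma estimates from 3 arrays per group and bars their 95% intervals, and filled points have adjusted p under 0.05. Col12a1 lies farthest to the right at 5.42 and 4.83, and Col4a1 and Col4a2 are the filled points left of 0.

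Promoter windows are shown for 3 chains that were high in OB and belong to different assemblies, the type I chain Col1a2, the type VIII chain Col8a1 and the type X chain Col10a1, which were chosen after their values were seen. Each is the 250 bases before the annotated start, 5′ to 3′ on the gene's strand, from RefSeq with build GRCm38.p6. The Col1a2 window is chr6:4505368-4505617 on the plus strand, the Col8a1 window chr16:57754738-57754987 on the minus strand and the Col10a1 window chr10:34389731-34389980 on the plus strand. Capitals mark matches on either strand to any of 3 motifs, none of which contains another. They were the core promoter motif TATAAA, the motif of the factor NF-Y, which is CCAAT, and the motif of Sp factors, which is GGGCGG.
Col1a2: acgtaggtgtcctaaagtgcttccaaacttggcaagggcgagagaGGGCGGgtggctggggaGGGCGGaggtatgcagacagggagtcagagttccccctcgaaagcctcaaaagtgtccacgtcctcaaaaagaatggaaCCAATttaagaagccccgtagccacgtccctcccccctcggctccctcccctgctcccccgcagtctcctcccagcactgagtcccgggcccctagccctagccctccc
Col8a1: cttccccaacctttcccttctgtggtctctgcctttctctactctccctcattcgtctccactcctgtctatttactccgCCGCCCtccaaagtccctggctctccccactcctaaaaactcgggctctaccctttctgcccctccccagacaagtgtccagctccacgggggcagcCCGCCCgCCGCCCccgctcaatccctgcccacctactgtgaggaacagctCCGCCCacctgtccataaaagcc
Col10a1: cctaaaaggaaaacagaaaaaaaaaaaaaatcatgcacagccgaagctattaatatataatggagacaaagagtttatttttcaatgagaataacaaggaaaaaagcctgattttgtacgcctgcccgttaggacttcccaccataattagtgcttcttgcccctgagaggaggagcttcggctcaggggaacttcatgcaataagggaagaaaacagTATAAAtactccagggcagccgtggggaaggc
The Col10a1 window held TATAAA, starting 32 bases before the annotated start, and neither other motif. The Col8a1 window held GGGCGG at 4 places, with first bases 170, 73, 66 and 23 bases before the start. The Col1a2 window held CCAAT 109 bases and GGGCGG 205 and 188 bases before the start. Windows were matched by symbol for 35 of the 44 chain genes, 38 windows in all. TATAAA was in 5 of these 38 (Col3a1, Col10a1, Col11a2, Col13a1 and Col17a1) and in 12.4% of all 32851 windows of the same length. CCAAT was in 13 of the 38 and in 33.9% of all windows, and GGGCGG in 22 of the 38 and in 32.7% of all. These matches describe the letters only.

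The interstitial fibril chains were higher in OB for 5 of 5 genes in each condition, with median differences of 2.13 and 1.90. Col1a1 measured 11.30, 10.99 and 10.80 in tumor-free OB, 11.27, 11.05 and 10.84 in OB of tumor-bearing mice, 7.64, 7.36 and 7.65 in tumor-free EC and 7.46, 7.42 and 7.69 in EC of tumor-bearing mice. Every OB array lay above every EC array. The difference was 3.48 ± 0.16 (SE), 11.1-fold, in tumor-free mice and 3.53 ± 0.16, 11.5-fold, in tumor-bearing mice (limma adjusted p = 2.24e-07 and 2.40e-07). Its partner Col1a2 measured 10.90, 10.82 and 10.73 in tumor-free OB and 7.16, 6.62 and 7.08 in tumor-free EC, and 10.97, 10.97 and 10.73 against 7.09, 7.02 and 7.17 with tumor. The Col1a2 groups did not overlap either, and its differences of 3.86 ± 0.14 and 3.80 ± 0.14 (limma adjusted p = 5.27e-08 and 5.60e-08) lay close to those of Col1a1.

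Col3a1, the chain of the type III homotrimer of soft and developing tissue, was higher in OB by 1.52 ± 0.16 in tumor-free and 1.13 ± 0.16 in tumor-bearing mice (limma adjusted p = 1.03e-04 and 8.37e-04). It measured 8.33, 8.70 and 8.17 in tumor-free OB against 6.93, 6.74 and 6.98 in tumor-free EC. The type V chains, which start and limit the growth of type I fibrils, differed unequally. Col5a2 measured 8.19, 8.25 and 7.76 in tumor-free OB against 5.92, 5.93 and 5.95 in tumor-free EC, a difference of 2.13 ± 0.14 (limma adjusted p = 3.84e-06). Its EC values lay at the array medians, where differences are understated. Col5a1, which joins Col5a2 in the common type V trimer, differed by 0.50 ± 0.12 and 0.53 ± 0.12 (limma adjusted p = 0.0188 and 0.0155). The third chain, Col5a3, differed by 0.18 and 0.19 and did not pass (limma adjusted p = 0.331 and 0.315), although every OB array lay above every EC array of the same condition. Col5a1 no longer passed without tumor-free EC replicate 1 or 2 or tumor-free OB replicate 1 in tumor-free mice (adjusted p of 0.0619 to 0.0756 and differences of 0.46), nor without EC replicate 1 or 2 or OB replicate 1 in tumor-bearing mice (0.0502 to 0.0605, and 0.44 to 0.52). Its calls also ended with the replicate number as a block across cell types (adjusted p = 0.0690 and 0.0632), and in tumor-bearing mice with only the groups compared (0.0614). The remaining fibrillar chains outside cartilage are the minor chains Col24a1 and Col27a1. Col24a1 was higher by 0.70 ± 0.12 and 0.58 ± 0.12 (limma adjusted p = 0.00351 and 0.0111), with values of 7.29 to 7.69 in tumor-free OB against 6.70 to 6.88 in tumor-free EC. Col27a1 differed by 0.09 and 0.18 and did not pass.

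**Figure D2:**
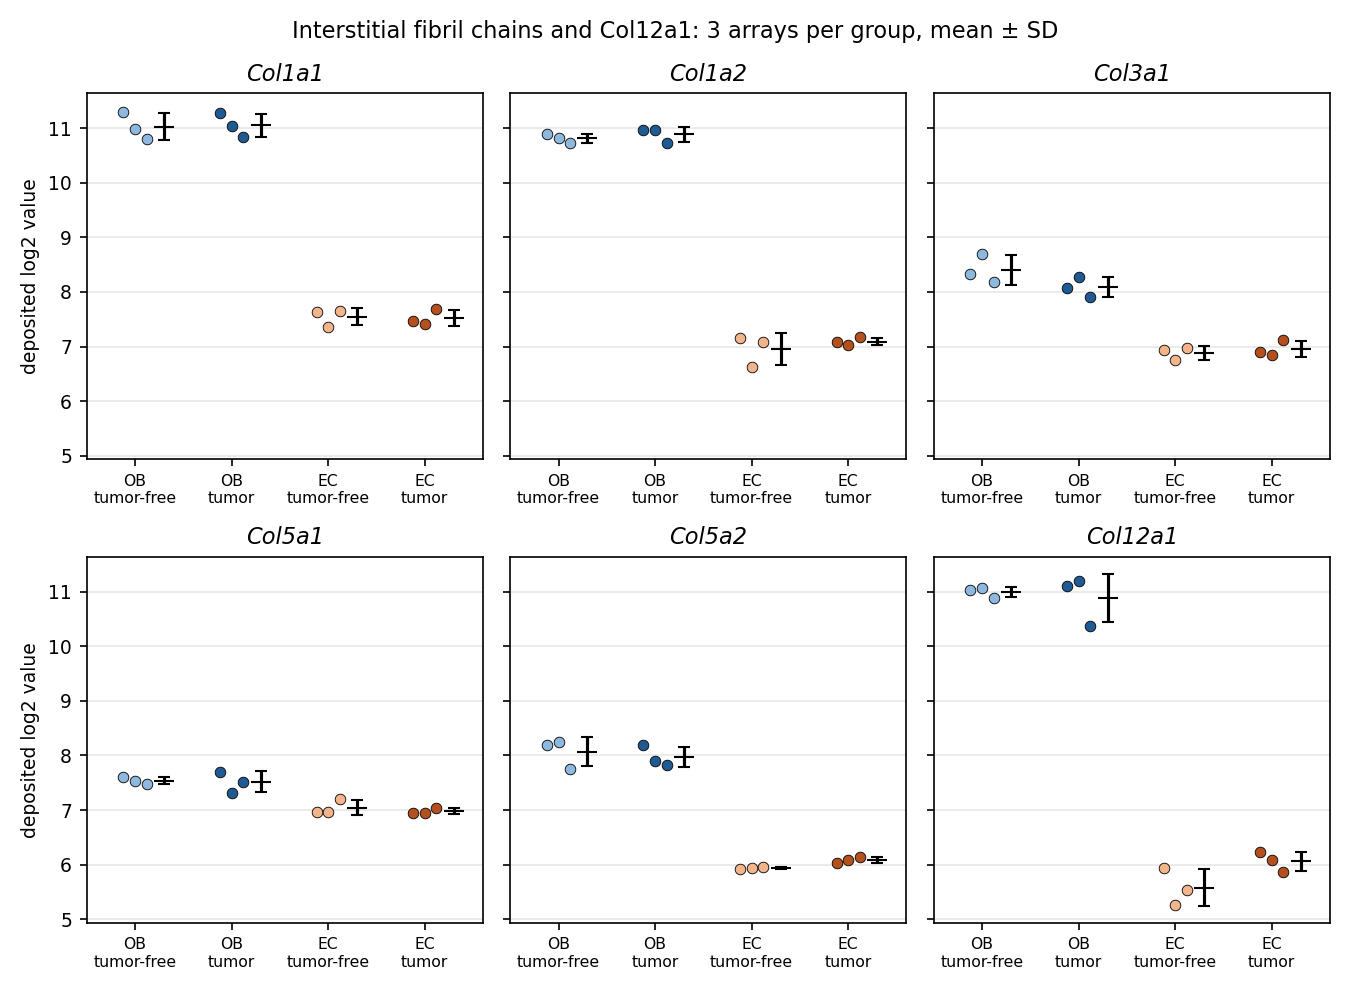
Deposited log2 values (vertical axis) of the interstitial fibril chains and Col12a1 in the 4 groups (horizontal axis). Each point is 1 array and the bar beside it is the mean ± SD of 3 arrays. The OB arrays lie above the EC arrays in every panel, by 3.48 for Col1a1 and by 0.50 for Col5a1 in tumor-free mice. The tumor-free and tumor points of a cell type overlap in height, except those of Col5a2 in EC. These lie at 5.92 to 5.95 without tumor and at 6.02 to 6.14 with tumor.

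Among the fibril-associated collagens, which decorate the surface of fibrils, Col12a1 had the largest difference between the gates. It is the chain of type XII collagen, found on type I fibrils of bone, tendon and fascia. Col12a1 measured 11.03, 11.07 and 10.89 in tumor-free OB and 11.10, 11.19 and 10.38 in OB of tumor-bearing mice. In EC it measured 5.93, 5.26 and 5.53 without tumor and 6.22, 6.08 and 5.87 with tumor, at or near the array medians. The difference of 5.42 ± 0.23 in tumor-free mice, 42.9-fold, was the largest of the 44 chain genes in the fit of all arrays, and in tumor-bearing mice it was 4.83 ± 0.23, 28.5-fold (limma adjusted p = 1.03e-07 and 2.74e-07). The related chain Col14a1, of type XIV collagen, measured 6.20 to 6.48 in tumor-free OB and 6.13 to 6.34 in tumor-free EC, a difference of 0.11 that did not pass (limma adjusted p = 0.655). Col22a1, known from tissue junctions such as that of muscle and tendon, was higher by 0.47 ± 0.13 in tumor-bearing mice (limma adjusted p = 0.0385) and measured 0.37 ± 0.13 in tumor-free mice, where it did not pass (0.0886). The tumor-bearing call of Col22a1 ended without any 1 of 6 arrays (replicates 1 and 2 of OB and EC with tumor and of tumor-free EC), with adjusted p of 0.0540 to 0.134 and differences of 0.39 to 0.47. It also ended with only the groups compared (adjusted p = 0.125), with trend and robust estimation (0.0592) and with the replicate block within or across cell types (0.0547 and 0.140). Col16a1, Col19a1 and Col20a1 differed by -0.03 to 0.30 and passed in neither condition.

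Type VI collagen is built from alpha1, alpha2 and one of the longer chains, and its 3 classical chain genes were higher in OB in both conditions. Col6a1 measured 9.73, 9.69 and 8.94 in tumor-free OB against 6.63, 6.89 and 7.06 in tumor-free EC, and 9.72, 9.93 and 9.67 against 7.26, 7.08 and 7.72 with tumor. Its differences were 2.59 ± 0.23 and 2.42 ± 0.23 (limma adjusted p = 3.72e-05 and 6.87e-05). The neighbouring gene Col6a2 was higher by 1.45 ± 0.19 and 1.07 ± 0.19 (limma adjusted p = 5.72e-04 and 0.00447), from 8.32, 8.97 and 8.35 in tumor-free OB against 6.90 to 7.39 in tumor-free EC. Col6a3 was well above the array medians in both gates. It measured 9.82, 10.25 and 9.85 in tumor-free OB and 8.68, 8.93 and 8.86 in tumor-free EC, a difference of 1.15 ± 0.15 (limma adjusted p = 6.14e-04), and the difference was 1.78 ± 0.15 with tumor (3.24e-05). The chains of the second group, Col6a4, Col6a5 and Col6a6, lay between 5.74 and 7.67 on all arrays, differed between the gates by -0.13 to 0.25 and passed in neither condition.

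Of the short-chain network collagens, Col8a1 and Col10a1 were higher in OB and Col8a2 was not called. Type VIII collagen occurs in vessel walls, in the cornea and in other matrices. Col8a1 measured 9.60, 9.93 and 9.52 in tumor-free OB and 9.09, 9.39 and 8.85 in OB with tumor, against 6.82, 6.81 and 6.56 in tumor-free EC and 7.71, 7.31 and 7.08 in EC with tumor. It was higher in OB by 2.95 ± 0.19 without tumor and 1.74 ± 0.19 with tumor (limma adjusted p = 3.56e-06 and 1.99e-04). Col8a2, the other type VIII chain, measured 6.31 to 6.61 in tumor-free OB and 6.27 to 6.59 in tumor-free EC, a difference of -0.04 (limma adjusted p = 0.886).

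The 7 cartilage chains, Col2a1, Col9a1, Col9a2, Col9a3, Col10a1, Col11a1 and Col11a2, were measured above the EC level in OB by a median of 1.41 in each condition, and 4 of the 7 passed in each. They varied more between OB arrays than the interstitial chains did. The median SD over the 3 arrays was 0.71 for the cartilage chains and 0.25 for the interstitial chains in tumor-free OB, and 0.41 and 0.19 in OB with tumor. Among the 3 tumor-free OB arrays, replicate 2 had the highest value for 7 of 7 cartilage chains. Among the 3 OB arrays with tumor, replicate 3 had the lowest value for 7 of 7. That low array was not particular to cartilage chains. Replicate 3 was also lowest for 4 of 5 interstitial chains in OB with tumor and for 5 of 5 in tumor-free OB. In OB with tumor, replicate 3 had an osteoblast marker median of 9.07 against 9.66 and 9.81. Its pan-haematopoietic median was the highest, 6.59 against 5.92 and 5.84. The 13 measured chondrocyte markers, which include no collagen gene, had their highest tumor-free OB value in the same replicate 2 for 13 of 13. Their lowest value in OB with tumor was in the same tumor replicate 3 for 13 of 13. Their medians were 8.20, 10.17 and 8.26 in tumor-free OB, 10.00, 10.39 and 7.95 in OB with tumor and 5.55 to 6.10 in EC. The log2 of their summed level ran from 12.07 to 14.00 in tumor-free OB, from 11.82 to 13.88 in OB with tumor, from 9.38 to 9.81 in tumor-free EC and from 9.42 to 9.56 in EC with tumor. The part of the chondrocyte markers' variation in the values of the cartilage chains was not tested.

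Col2a1, the type II collagen chain of cartilage, measured 8.34, 9.63 and 8.15 in tumor-free OB and 8.93, 9.02 and 7.81 in OB with tumor, against 7.02 to 7.31 on the 6 EC arrays. The OB and EC arrays did not overlap. Col2a1 was higher by 1.57 ± 0.39 and 1.41 ± 0.39 (limma adjusted p = 0.0233 and 0.0438). In tumor-free mice that call ended without any 1 of the 3 tumor-free EC arrays (adjusted p of 0.0619 to 0.0772 and differences of 1.51 to 1.61), and in tumor-bearing mice without OB tumor replicate 1 or 2 or any 1 of the 6 EC arrays (0.0644 to 0.143, and 1.19 to 1.47). Both calls ended with only the groups compared (adjusted p = 0.0531 and 0.0525) and with the block across cell types (0.0624 and 0.0974), and the tumor-bearing one without the filter on dim genes (0.0585). Col10a1 measured 8.40, 10.94 and 9.62 in tumor-free OB and 10.25, 10.34 and 9.92 in OB with tumor, against 7.07, 6.48 and 7.02 in tumor-free EC and 6.94, 7.32 and 5.82 in EC with tumor. Tumor-free OB replicate 1 was the lowest OB array for this gene by over a log2 unit. Col10a1 was higher in OB by 2.80 ± 0.56 and 3.48 ± 0.56 (limma adjusted p = 0.00737 and 0.00239). Col11a1, which with Col11a2 and a type II chain forms the core of thin cartilage fibrils and is also found in bone-forming cells, measured 9.58, 10.24 and 8.82 in tumor-free OB against 6.89 to 7.07 in tumor-free EC. It was higher by 2.56 ± 0.33 and 2.68 ± 0.33 (limma adjusted p = 4.90e-04 and 4.08e-04).

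Partner chains of the cartilage fibrils differed less or did not pass. Col11a2 was higher by 0.53 ± 0.15 in tumor-free mice (limma adjusted p = 0.0434) and measured 0.50 ± 0.15 in tumor-bearing mice (0.0597). The tumor-free call of Col11a2 ended without any 1 of 9 arrays, with adjusted p of 0.0511 to 0.136 and differences of 0.43 to 0.59. These were all arrays except OB tumor replicates 2 and 3 and EC tumor replicate 1. It also ended with only the groups compared (adjusted p = 0.0507), with trend and robust estimation (0.0770) and with the replicate block within or across cell types (0.0517 and 0.132). Of the type IX chains, which bind to type II fibrils, Col9a1 measured 7.62, 9.30 and 7.92 in tumor-free OB, 8.78, 9.22 and 7.44 in OB with tumor and 6.67 to 6.97 in EC. Its difference of 1.73 ± 0.47 passed in tumor-bearing mice (limma adjusted p = 0.0423) and that of 1.41 ± 0.47 in tumor-free mice did not (0.0855). The tumor-bearing call of Col9a1 ended without OB tumor replicate 1 or 2 or any 1 of the 6 EC arrays (adjusted p of 0.0629 to 0.140 and differences of 1.36 to 1.81), with only the groups compared (0.0692), with the block across cell types (0.0743) and without the filter on dim genes (0.0571). Col9a2 and Col9a3 differed by 0.21 to 0.46, passed in neither condition and had overlapping OB and EC arrays.

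**Figure D3:**
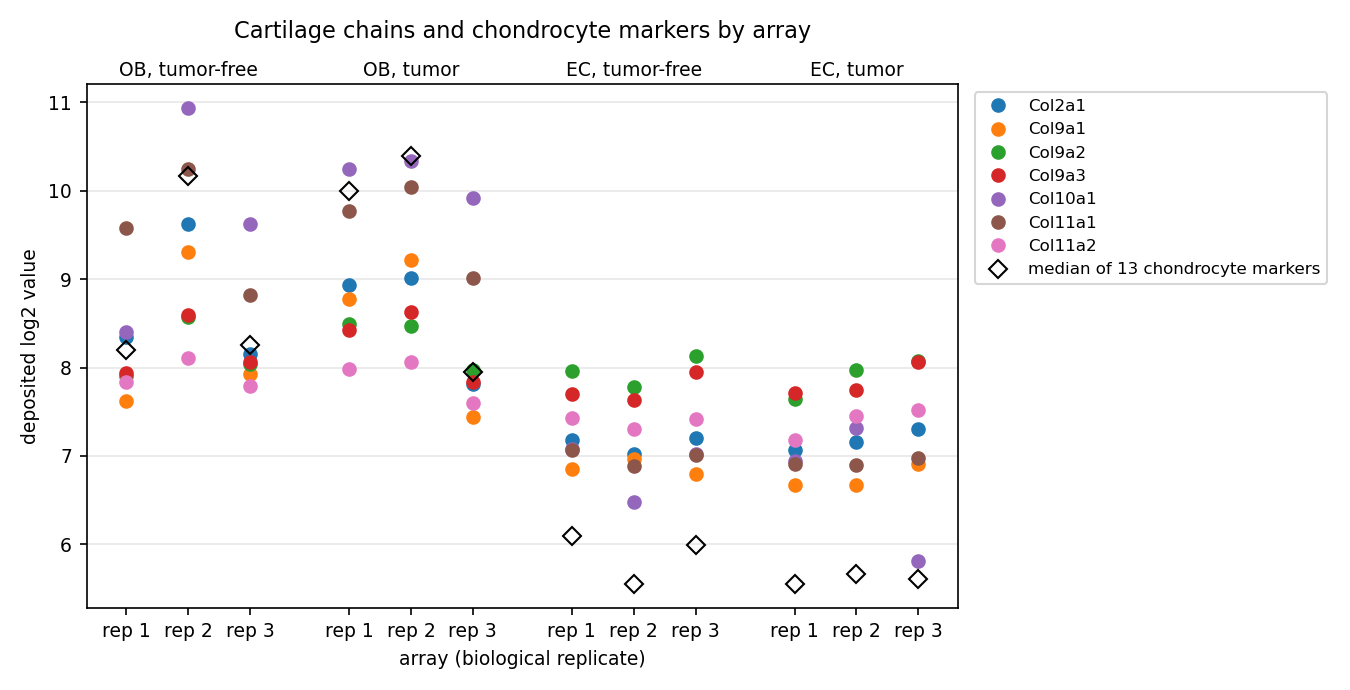
Deposited log2 values (vertical axis) of the 7 cartilage chains, 1 colour per gene, and the median of the 13 chondrocyte markers (open diamonds) on each of the 12 arrays (horizontal axis). Heights compare arrays for 1 gene and not genes with each other. Tumor-free OB replicate 2 is the highest of its group for every chain and OB tumor replicate 3 the lowest of its group, and the diamonds stand at 10.17 and 7.95 on those arrays.

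The basement membrane chains Col4a1 and Col4a2 were the only chain genes called lower in OB, in both conditions. These chains form the widespread type IV trimer, and their genes lie head to head. In the RefSeq table their annotated starts overlap by 22 bases, at chr8:11312805-11312826 of GRCm38.p6. This stretch is shown because both genes begin in it, read on the strand of each gene.
Col4a2: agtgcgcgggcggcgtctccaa
Col4a1: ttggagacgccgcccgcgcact
Col4a1 measured 7.20, 7.30 and 7.46 in tumor-free OB and 8.17, 8.15 and 8.06 in tumor-free EC, and 7.46, 7.28 and 7.30 against 7.75, 8.19 and 8.27 with tumor. Every EC array lay above every OB array. The differences, OB minus EC, were -0.81 ± 0.14 and -0.72 ± 0.14 (limma adjusted p = 0.00351 and 0.00770). With the replicate block across cell types the tumor-bearing difference of Col4a1 no longer passed (adjusted p = 0.0524). Col4a2 measured 6.84, 6.63 and 7.16 in tumor-free OB against 7.63, 7.58 and 7.76 in tumor-free EC, and 6.88, 6.87 and 6.77 against 7.47, 8.20 and 8.16 with tumor, again without overlap. Its differences were -0.78 ± 0.20 and -1.10 ± 0.20 (limma adjusted p = 0.0249 and 0.00450). The tumor-free call of Col4a2 ended without tumor-free OB replicate 1 or 2 or any 1 of the 3 tumor-free EC arrays, with adjusted p of 0.0577 to 0.0855 and differences of -0.82 to -0.66. It also ended with quantile normalization (adjusted p = 0.0502) and with the replicate block within each cell type (0.0538). The tissue-restricted type IV chains Col4a3, Col4a4, Col4a5 and Col4a6, known from kidney and other specialised basement membranes, differed by -0.10 to 0.18 and passed in neither condition.

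The multiplexins are proteoglycan-linked collagens of vascular and epithelial basement membranes. Col18a1, whose end fragment is endostatin, measured 6.88 to 6.99 in tumor-free OB and 6.73 to 7.02 in tumor-free EC, a difference of 0.03 (limma adjusted p = 0.938). Col15a1 measured 6.63 to 6.81 against 6.74 to 6.82 in tumor-free mice and 6.61 to 6.84 against 6.83 to 7.23 in tumor-bearing mice. Its differences of -0.04 and -0.32 did not pass (limma adjusted p = 0.896 and 0.153).

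**Figure D4:**
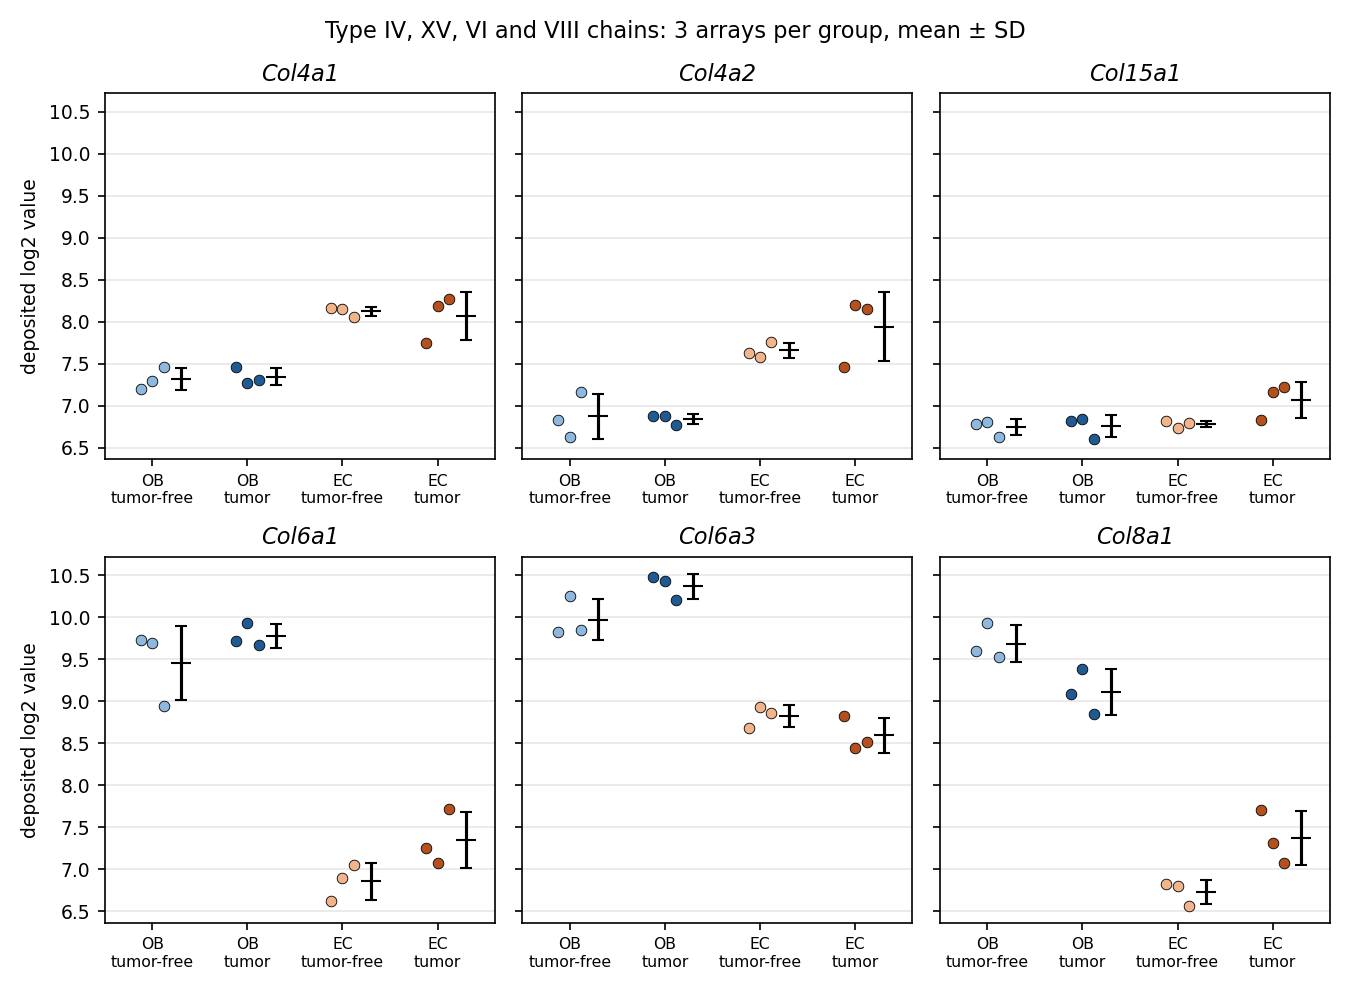
Deposited log2 values (vertical axis) of chains of types IV, XV, VI and VIII in the 4 groups (horizontal axis). Points are single arrays and the bar beside them is the mean ± SD of 3 arrays. Col4a1 and Col4a2 are higher on the EC arrays, Col6a1, Col6a3 and Col8a1 on the OB arrays, and Col8a1 lies lower with tumor in OB and higher with tumor in EC.

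Of the transmembrane collagens, Col25a1 was higher in tumor-free OB by 0.46 ± 0.13 (limma adjusted p = 0.0459), with values of 6.70 to 6.79 against 6.22 to 6.35. Its call was lost without any 1 of 10 arrays, all except tumor-bearing EC replicates 1 and 3, with adjusted p of 0.0594 to 0.144 and differences of 0.41 to 0.49, and with the replicate block within or across cell types (0.0944 and 0.0915). Col13a1, a chain of muscle and other cell adhesion sites, measured 0.30 and 0.28, and Col17a1 and Col23a1 measured 0.01 to 0.21, none of which passed. The anchoring fibril chain Col7a1 and the chains Col26a1 and Col28a1 differed by -0.11 to 0.08 and did not pass. Of the 44 chain genes, 30 were above the 60th percentile of the array's probe sets on all 12 arrays and 5 on none (Col4a5, Col4a6, Col6a4, Col19a1 and Col28a1), so those 5 were dim in both gates. Col4a4 and Col14a1 were above it on 2 of the 12 arrays and Col8a2 on 4. For such dim genes a small difference between the gates does not show equal RNA levels.

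In the RefSeq gene order, 8 pairs of chain genes are direct neighbours, and their differences between the gates were alike in some pairs and unlike in others. In tumor-free mice Col4a1 and Col4a2 measured -0.81 and -0.78, and Col3a1 and Col5a2 measured 1.52 and 2.13. Col6a2 and Col6a1 measured 1.45 and 2.59. Col9a1 and Col19a1, by contrast, measured 1.41 and 0.30, and the other 4 pairs, among Col4a3 to Col4a6 and Col6a4 to Col6a6, lay between -0.13 and 0.22. No test was made of these pairs.

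The enzymes that modify, process and crosslink collagen were called more often as higher than as lower in OB. Of 20 tested genes for hydroxylation, folding and secretion, 10 were higher and 1 lower in tumor-free OB, and 11 and 1 in tumor-bearing mice. For this list and those that follow, the shares over all genes were 5.38% higher and 7% lower in tumor-free OB. In tumor-bearing mice they were 4.89% and 5.68%. Plod2, which hydroxylates telopeptide lysines for bone-type crosslinks, was higher in OB by 3.53 and 4.35 (limma adjusted p = 1.53e-04 and 3.61e-05). P3h1, the prolyl 3-hydroxylase of type I collagen, was higher by 1.39 and 1.72, and Creb3l1, a factor for Col1a1 transcription in osteoblasts, by 2.16 and 2.58. Of 10 genes for propeptide removal and crosslinking, 7 were higher and 0 lower in each condition. Among them were Pcolce, an enhancer of C-propeptide removal (3.06 and 2.46), Lox, which starts crosslinks (3.81 and 3.33), and the C-proteinase Bmp1 (1.78 and 1.85). The median difference of this list was 1.82 in tumor-free mice, beside 0.26 over the chain genes and -0.01 over all genes.

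Collagen receptors were divided, with 4 of 8 higher and 2 lower in OB in each condition. The cartilage and bone receptor chain Itga10 (2.01 and 1.82) and the uptake receptor Mrc2 (1.68 in tumor-free mice) were higher in OB. Itga2, a receptor chain for fibrillar collagen, was lower by -1.38 in tumor-free mice, and Itga1, which favours type IV collagen, by -2.53 in tumor-bearing mice. Of 8 genes for collagen breakdown and its inhibition, 7 were higher and 1 lower in tumor-free OB, and 6 and 0 with tumor. The collagenase Mmp13 was higher by 7.05 and 4.83, the gelatinase Mmp2 by 3.33 and 3.70 and the inhibitor Timp1 by 3.77 and 4.74.

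The series asked how the bone stroma differs when tumor cells grow in the bone, and for collagen chains the measured tumor differences were small. In OB, 0 of the 44 chain genes passed by limma, where 0.0563% of all genes did, and 2 had an unadjusted p under 0.05, where 9.78% of all genes did. The differences, tumor-bearing minus tumor-free, ran from -0.58 to 0.52 with a median of -0.03, beside -0.02 over all genes. Col1a1 differed by 0.03 (95% interval from -0.33 to 0.38) and Col1a2 by 0.08 (from -0.25 to 0.40), while for Col10a1 the difference of 0.52 had an interval from -0.72 to 1.76. Without tumor-free OB replicate 1 the Col10a1 difference was -0.11. The half-width of the 95% interval, not adjusted for the number of genes, ran from 0.19 to 1.24 over the 44 chain genes, with a median of 0.31. Smaller differences were not resolved with 3 arrays per group. Larger ones could also fail to pass after adjustment, such as the -0.58 of Col8a1 (limma adjusted p = 0.365).

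The lowest moderated statistics in OB belonged to Col8a1 (-0.58 ± 0.19), Col3a1 (-0.32 ± 0.16), Col24a1 (-0.18), Col23a1 (-0.18) and Col19a1 (-0.18), and the highest to Col6a3 (0.40 ± 0.15), Col6a1 (0.32), Col18a1 (0.15), Col10a1 (0.52) and Col5a3 (0.07). Only Col8a1 and Col6a3 had an unadjusted p under 0.05 (limma unadjusted p = 0.013 and 0.0262, adjusted p = 0.365 and 0.436). Tumor-free and tumor arrays did not overlap for Col5a3 and Col18a1, which were measured higher with tumor, nor for Col8a1 and Col17a1, which were measured lower. These are 4 of 44, where 14.5% of all genes did not overlap. Neutrophil markers were measured lower with tumor for 8 of 8 genes in OB, by a median of -1.05. Of these, 0 of 8 passed by limma, with 1 at an unadjusted p under 0.05 (9.78% of all genes). The log2 of their summed level was 10.61 to 11.99 with tumor and 11.80 to 13.71 without. Chondrocyte markers were measured higher with tumor for 11 of 12 tested genes, with a median of 0.51, 0 passing and 1 at an unadjusted p under 0.05. Of 10 fibroblast and tendon markers 6 were measured higher, with a median of 0.32. Here 0 passed, 4 had an unadjusted p under 0.05, and 2 higher and 1 lower did not overlap. The part of these cells' RNA in the OB differences was not tested. Without tumor-free OB replicate 3, 0 of 44 chain genes passed, the Col8a1 difference was -0.66 and that of Col6a1 was 0.06.

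In EC, 0 of 44 passed by limma, where 0.0141% of all genes did, and 2 had an unadjusted p under 0.05, where 4.59% of all genes did. The differences ran from -0.23 to 0.64 with a median of 0.00, beside 0.01 over all genes. The highest moderated statistics belonged to Col8a1 (0.64 ± 0.19, limma unadjusted p = 0.00769, adjusted p = 0.845), Col15a1 (0.29 ± 0.12, unadjusted p = 0.0422), Col12a1 (0.48), Col6a1 (0.49) and Col4a3 (0.14). The lowest belonged to Col6a3 (-0.23), Col8a2 (-0.10), Col6a4 (-0.12), Col27a1 (-0.09) and Col26a1 (-0.07). Groups did not overlap for Col5a2, Col6a1, Col8a1 and Col15a1, all measured higher with tumor, which are 4 of 44 where 10.5% of all genes did not overlap. The vascular basement membrane chains Col4a1 and Col4a2 differed by -0.06 (from -0.37 to 0.26) and 0.28 (from -0.15 to 0.72). For both genes EC tumor replicate 1 was the lowest of its group. Osteoblast markers had a higher summed level in EC with tumor, with a log2 of 9.69 to 10.65 against 9.30 to 9.41, while their median was 5.81 to 5.96 against 5.74 to 6.05. Of 7 tested, 0 passed by limma and 1 had an unadjusted p under 0.05, the bone matrix protein gene Ibsp (1.29, unadjusted p = 0.00223, adjusted p = 0.611). The type I chains Col1a1 and Col1a2 differed by -0.02 and 0.14 in EC. The part of osteoblast RNA in the EC differences was not tested.

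**Figure D5:**
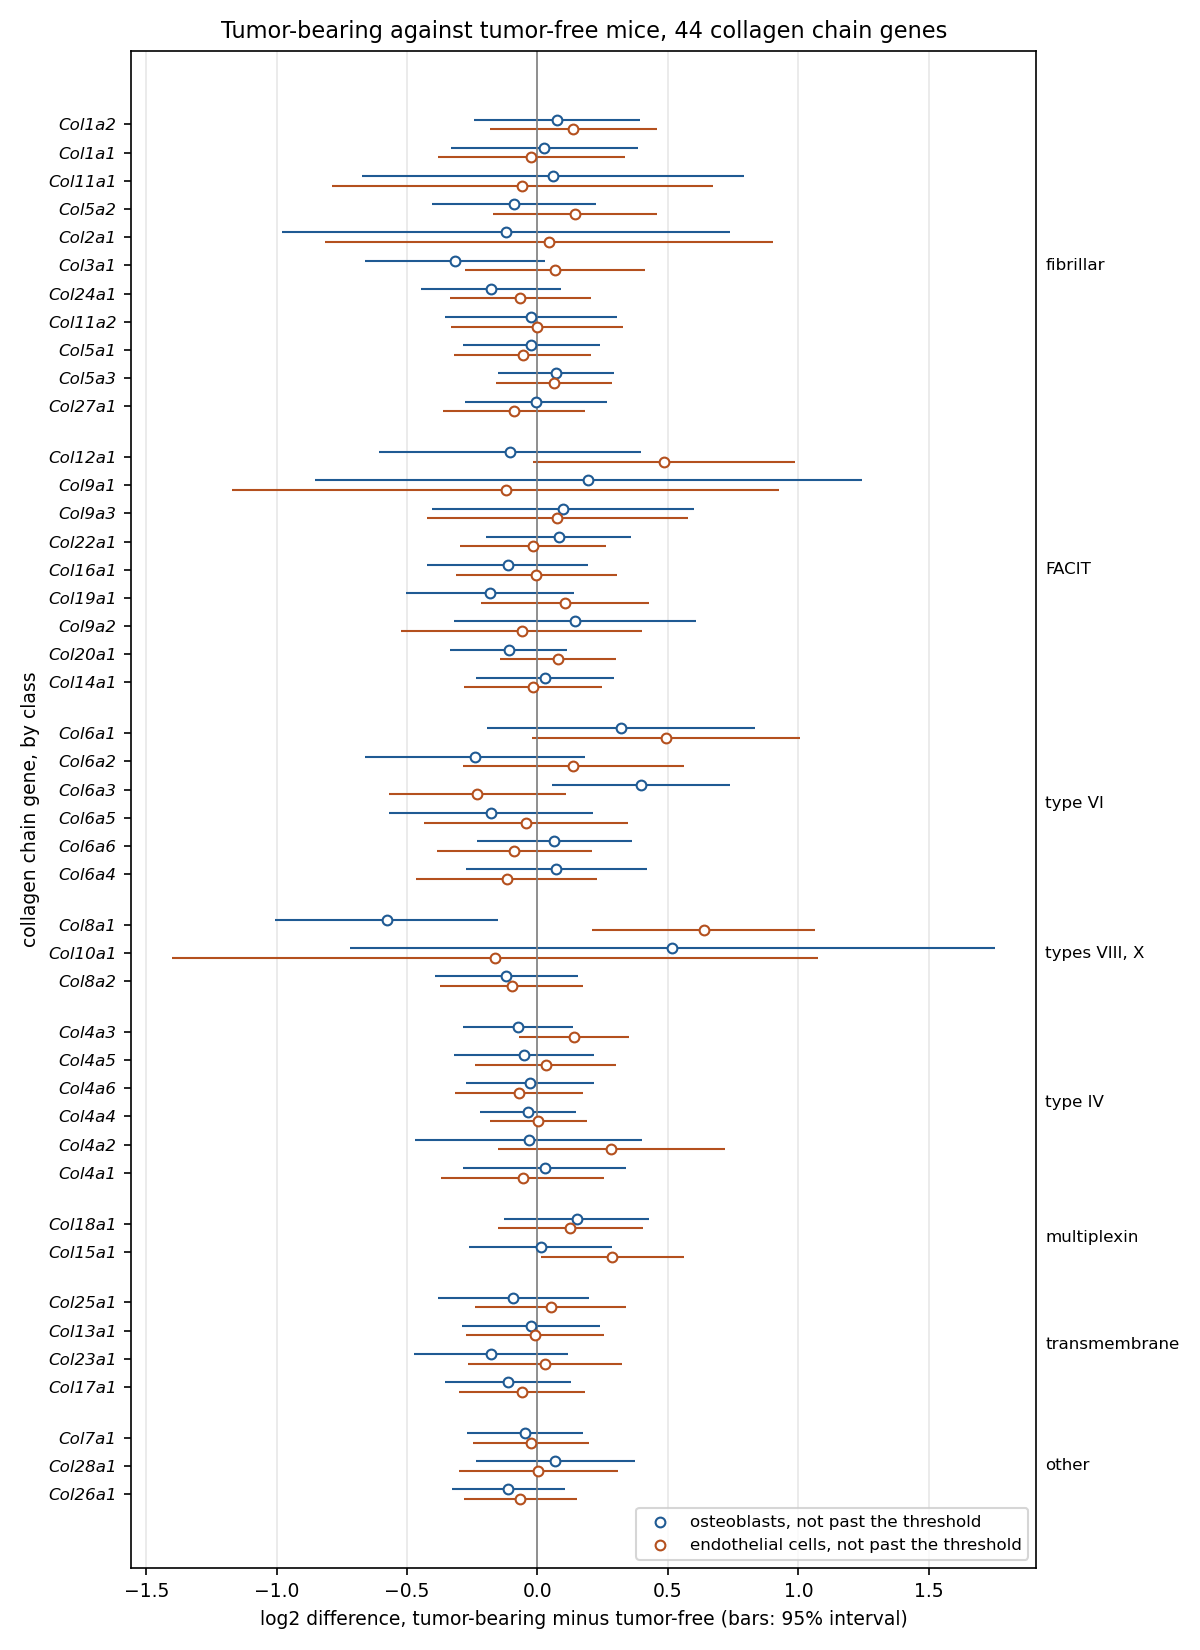
Tumor-bearing minus tumor-free differences on the log2 scale (horizontal axis) of the 44 collagen chain genes by class (vertical axis), in osteoblasts and endothelial cells. Points are limma estimates from 3 arrays per group and bars their 95% intervals, and all points are open because none passed an adjusted p of 0.05. Col8a1 is the chain whose intervals lie on opposite sides of 0, at -0.58 in osteoblasts and 0.64 in endothelial cells.

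The difference of the tumor effects, OB minus EC, passed for 0 of 44 chain genes by limma, where 0.0281% of all genes passed. Unadjusted p under 0.05 was reached by 2, where 6.47% of all genes reached it, namely Col8a1 (-1.22 ± 0.27, limma unadjusted p = 0.00113, adjusted p = 0.366) and Col6a3 (0.63 ± 0.22, unadjusted p = 0.0155, adjusted p = 0.675). The other low statistics were those of Col12a1 (-0.59), Col3a1 (-0.38), Col4a3 (-0.21) and Col15a1 (-0.27), and the other high ones those of Col10a1 (0.68), Col6a4 (0.19), Col6a6 (0.15) and Col9a2 (0.20). For Col8a1 the 3 tumor arrays of OB lay below the 3 tumor-free arrays and the 3 tumor arrays of EC above theirs. Markers of marrow stroma and adipocytes were measured in the same directions, although 0 of 8 passed by limma in OB, in EC or in the difference. These markers had 2, 6 and 6 genes at an unadjusted p under 0.05, beside 9.78%, 4.59% and 6.47% of all genes. Their median ran from 7.77 to 8.42 in OB with tumor against 8.67 to 9.04 without, with 5 of 8 genes not overlapping and lower (8.36% of all genes), and from 8.87 to 9.60 in EC with tumor against 7.62 to 8.19 without, with 7 of 8 not overlapping and higher (5.63% of all genes). The log2 of their summed level was 11.85 to 12.36 against 12.57 to 12.82 in OB and 12.19 to 12.86 against 11.44 to 11.88 in EC. Of 8 pericyte and smooth muscle markers 0 passed in EC by limma, 2 had an unadjusted p under 0.05, 2 did not overlap and were higher with tumor, and the median difference was 0.08. The one with the smallest p was Rgs5 (1.37, limma adjusted p = 0.175). The part of these cells' RNA in the Col8a1 values was not tested.

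The pathway genes around the chains likewise held few tumor calls. In OB 0 of 20 hydroxylation and folding genes, 0 of 10 processing and crosslinking genes, 0 of 8 receptors and 0 of 8 breakdown genes passed by limma. Over all genes 0.0563% passed in OB. In EC the collagenase gene Mmp13 passed, with 2.18 ± 0.17 (limma adjusted p = 0.00124) from a mean of 5.11 to 7.29, and so did its difference of tumor effects (-2.22, adjusted p = 0.0179). Mmp13 had a mean of 12.16 in tumor-free OB, and the summed levels of osteoblast and of marrow stroma markers were also higher in EC with tumor, as given above. Their part in the Mmp13 difference was not tested. No other gene of the 4 lists passed in EC or in the difference. Pcolce had an EC difference of 0.69 ± 0.15 that did not pass (limma adjusted p = 0.430).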

How the data were processed

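Both sorted cell types were profiled on Affymetrix Mouse Gene 1.0 ST arrays, 12 in all, after isothermal amplification of the RNA of 5000 cells, per the labels' protocols. Amplification from so few cells can change the proportions of transcripts. The authors deposited log2 values; per the submitters' processing notes they used affy. Its version is not given in the sources used here, nor is the summary method. The values were used without further normalization. A platform annotation gave 1 symbol to 21640 of 34760 probe sets, updated through RefSeq (GRCm38.p6). The brightest probe set stood for a gene. The chain gene Col21a1, named in the class lists, has no single-symbol probe set and is not analysed here.

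With limma 3.58.1 (R 4.3.3), all 12 arrays entered 1 linear model, 1 coefficient for each group, with eBayes at its default prior, and two-sided p-values were adjusted by Benjamini-Hochberg over 14217 genes. Contrasts compared tumor-bearing with tumor-free mice within osteoblasts and within endothelial cells, these effects with each other, and osteoblasts with endothelial cells in each condition. Values after ± are standard errors unless called SD. The number of arrays limits the precision, and p-values measure the spread between samples that the labels call biological replicates. All comparisons share groups: the contrasts of the cell types and of tumor use the same 12 arrays.

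Members, classes, pathway and marker lists were chosen with earlier results of these data known. Named were all members called, the 5 highest and 5 lowest statistics where fewer than 10 passed, a set of always named chains, up to 3 genes with the smallest p per pathway or marker list, and label checks. The fit was tested on simulated data with known changes, 50 genes at each size. A log2 change of 0.5 was recovered for 18% of them in the OB tumor contrast, 22% in EC and 0% in the difference. A log2 change of 1 was recovered for 56%, 64% and 50%. Alternatives were other normalizations, filters, probe set and variance rules, array weights, only the groups compared, replicate blocks, a fold of at least 2, and arrays left out. The replicate block across cell types was chosen after seeing the data.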

Additional observations from a re-analysis of the deposited data

Results flagged for a closer look

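Col8a1, a type VIII collagen chain, was measured lower with tumor in osteoblasts and higher with tumor in endothelial cells. Of the 44 chain genes it alone was flagged, because tumor-free and tumor arrays did not overlap in either cell type, with opposite directions. The values below restate that rule and are no separate support. Over all genes, 8.36% were lower without overlap in osteoblasts and 5.63% higher without overlap in endothelial cells. The share of genes that did both was not counted. All 3 osteoblast arrays of tumor-bearing mice lay below the tumor-free ones (9.09, 9.39 and 8.85 against 9.60, 9.93 and 9.52), and with tumor all 3 endothelial arrays were above those without (7.71, 7.31 and 7.08 against 6.82, 6.81 and 6.56). The difference of the effects was -1.22 ± 0.27 (SE) on the log2 scale, with a limma unadjusted p of 0.00113 and an adjusted p of 0.366 over all genes, which did not pass. Under 22 alternatives the difference lay between -1.36 and -1.04, with adjusted p up to 0.605.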

How the results depend on the processing

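The counts of collagen chain genes called kept within 1.5 times of their values under all 24 alternatives. In tumor-free mice 18 were called between the cell types, 13 to 18 with 1 array left out, 12 with a fold change of at least 2 and 16 with only the groups compared. In tumor-bearing mice 18 were called, 14 to 19 with 1 array left out, 14 with a fold of at least 2 and 14 with only the groups compared. Called under every alternative were 11 of the 18 in tumor-free mice (Col1a1, Col1a2, Col3a1, Col5a2, Col6a1, Col6a2, Col6a3, Col8a1, Col10a1, Col11a1 and Col12a1) and 12 in tumor-bearing mice, the same genes and Col4a2. The tumor contrasts and their difference had 0 chain genes under every alternative run. Reversed were the Col10a1 tumor difference in osteoblasts, which was -0.107 without tumor-free osteoblast replicate 1 and up to 1.16 with another array left out, and that of Col23a1, which was 0.0142 without the third array of both osteoblast groups; neither had passed. Arrays that share a replicate number did not deviate together (correlations of -0.05 to 0.07), so the numbers were not taken to pair samples. With the replicate number within each cell type as a block, 16 and 17 chain genes were called between the cell types, and 14 and 13 with the block across cell types, which was chosen after seeing the data. The block gave 0 chain genes in the tumor contrasts. The 3 arrays per group and dim values in endothelial cells limit what could be resolved.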
